A study of Mus musculus with 47 samples.

Results

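Luminal mammary epithelial cells were compared between early involution, 2 days after forced weaning (Id2), and the regressed gland 4 weeks after forced weaning (Iw4). The series describes 47 RNA-seq samples, of which 46 libraries have values. The comparison rests on 6 of these 46, 3 luminal libraries from each time point, chosen by time point and cell type as the sample labels give them. The remaining libraries entered as references and as a source of the estimate of spread. All mice were of the inbred strain FVB/N and carried no engineered allele. Females of both groups were mated at 8 weeks of age, nursed, and had their pups removed at 10 days post-partum, so both groups had been pregnant and had lactated. Killed 4 weeks rather than 2 days after weaning, the Iw4 mice were also older. Age and time after weaning cannot be told apart. Luminal cells were the Lin−CD24+CD29lo fraction of a cell sort of mammary glands pooled from 4 mice, so a replicate is a pool and differences between single mice are averaged. The reference groups were luminal cells of mice that had never been pregnant, at 10 weeks (W10) and at 4 months of age (M4). Id2 replicates 2, 4 and 6 held 8578999, 7756125 and 7966921 reads on genes, and Iw4 replicates 3, 5 and 6 held 6499961, 4654463 and 5289986 reads. The Iw4 libraries were thus the shallower ones, and 3 reads, taken as the smallest measurable amount, were worth 0.383 to 0.610 CPM in these libraries. Counting error is the one error that this floor covers, because reads amplified without molecular identifiers include copies.

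Involution is the return of the lactating gland to a resting state once suckling stops. In its first phase milk accumulates, the cytokine LIF activates the transcription factor STAT3 in alveolar luminal cells, lysosomal proteases rise, and secretory cells are shed and die. In the later phase the alveoli collapse, the matrix is remodelled, fat refills the pad, and a ductal epithelium rich in hormone-sensing luminal cells remains.

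Of 17078 genes tested, 749 were higher at Iw4 (4.39%) and 1046 were lower (6.12%) when a change of 2-fold or more and a false discovery rate (FDR) below 0.01 were required. Values are read counts scaled to the effective library size of edgeR (CPM). The CPM of a library summed to 1.45e+06 to 1.70e+06 at Id2 and 675541 to 837477 at Iw4, so a CPM is not a share of its reads. Log2 fold changes, Iw4 minus Id2, were taken on log2(CPM + 1), a scale on which changes of sparsely read genes come out too small. The median log2 fold change over all genes was 0.00216. Of the 17078 genes, 5545 were at an unadjusted p under 0.05 by limma and 5377 by edgeR. These are the background for each count of list members at that p in this comparison. Where 2 sets of 3 CPM values are given for a gene, the first set is from Id2 replicates 2, 4 and 6 and the second from Iw4 replicates 3, 5 and 6, in that order. The 3 Iw4 values lay above the 3 Id2 values in 17.7% of all genes and below them in 20.3%. Across genes, libraries of the same time point correlated at r = 0.955 to 0.973 and libraries of different time points at r = 0.896 to 0.920, as a description of these libraries. When the spread was estimated from the 6 libraries alone, 638 genes were called, 168 higher and 470 lower. Of the 94 called genes chosen for naming, 35 lost their call in that fit, namely *Csn2*, *Slc2a1*, *Socs3*, *Igfbp5*, *Lcn2*, *Ltf*, *Ctsl*, *Calca*, *Rspo1*, *Ptn*, *Ptprz1*, *Csn1s1*, *Galk1*, *Dgat2*, *Tnfrsf1a*, *Bcl2*, *Tgfb3*, *Trp53*, *Ctss*, *Cybb*, *Itgb3*, *Axl*, *Optn*, *Atg12*, *Ulk1*, *Cp*, *Calr*, *Sec61b*, *Sox9*, *Mcm6*, *Mcm7*, *Mcm4*, *Pcna*, *H2-Ab1* and *Psmb8*. With luminal libraries alone, *Calca*, *Tgfb3*, *Trp53*, *Timp3* and *Calr* lost theirs.

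Time point and technical batch coincided. Id2 libraries were sequenced in lane 3 from RNA amplification batch 4, and Iw4 libraries in lane 7 from amplification batches 1 to 3, so the change between Id2 and Iw4 and the change between these batches cannot be told apart in the plain comparison. References within the same batches were therefore added. The W10 libraries share amplification batch 4 with Id2 but were sequenced in lane 2, and against them 1064 genes were higher at Id2 (6.23%) and 707 were lower (4.14%). The M4 libraries share lane 7 and amplification batches 1 to 3 with Iw4, and against them 0 genes were called (0.0%) by limma, with 392 at an unadjusted p under 0.05. The edgeR test also called 0, with 340 at an unadjusted p under 0.05. The batch-referenced change is the Iw4 to M4 difference minus the Id2 to W10 difference. It was called for 98 genes upward (0.574%) and 272 downward (1.59%), and these shares of all genes are the background for each count of list members called in it. Of all 17078 genes, 3359 were at an unadjusted p under 0.05 in it by limma and 3248 by edgeR. Between Id2 and W10 the counts at that p were 5555 and 5541. These are the background for list members at that p in the same contrasts. The batch-referenced change also contains any difference between the ages of M4 and W10 mice. The upward count was 62 without Id2 replicate 4, 52 without Iw4 replicate 3 and 54 without Iw4 replicate 5, and the count lower at Id2 than at W10 was 453 without Id2 replicate 4. These comparisons share libraries, and their values are given side by side.

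The sorted cells carried luminal markers at both time points. The summed level of 10 luminal markers was 6330, 5330 and 5333 CPM in Id2 replicates 2, 4 and 6 and 6528, 7906 and 4406 CPM in Iw4 replicates 3, 5 and 6. The summed level of 10 basal markers was 162 to 323 CPM at Id2 and 121 to 291 CPM at Iw4, against means of 7090.1 and 17546 CPM in the basal libraries of the same time points. Among the luminal markers *Muc1*, a mucin of the apical membrane, was called lower (10%, beside 6.12% of all genes), and the other 9 were not called. None of the 10 basal markers was called by limma or edgeR. By each, 3 were at an unadjusted p under 0.05, beside 5545 and 5377 of all 17078 genes. The simple-epithelial keratins *Krt8* (log2 fold change 0.80, adjusted p = 0.21) and *Krt18* (log2 fold change 0.83, adjusted p = 0.3) overlapped between the groups. With one library left out the values ran from 0.51 to 1.05 for *Krt8* and from 0.50 to 1.24 for *Krt18*. The basal keratin *Krt14* was measured at 5.73, 8.23 and 9.15 CPM in the Id2 libraries and 21.8, 43 and 37.2 CPM in the Iw4 libraries, without a call (log2 fold change 1.97, adjusted p = 0.025).

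Marker lists of most other cell types had higher summed levels at Id2, by unequal amounts in its 3 libraries. Fibroblast markers (10 of 10 measured) summed to 295, 595 and 5549 CPM in Id2 replicates 2, 4 and 6 and to 166, 288 and 515 CPM in Iw4 replicates 3, 5 and 6. None of the 10 was called by limma or by edgeR. At an unadjusted p under 0.05 were 3 by limma, beside 5545 of all 17078 genes, and 6 by edgeR, beside 5377. Id2 replicate 6 stood apart with 2017 CPM of the collagen gene *Col1a1*, the most abundant of this list. Macrophage markers (10 of 10 measured) summed to 34.4, 180 and 235 CPM at Id2 and to 13.1, 13.1 and 13.5 CPM at Iw4. Of these 10, 6 were called lower (60%, beside 6.12% of all genes), namely *Ptprc*, *Adgre1*, *Csf1r*, *C1qa*, *C1qb* and *C1qc*, with *Adgre1* at 0, 0 and 0 CPM at Iw4. The most abundant macrophage marker, the lysozyme gene *Lyz2*, was at 1.58, 47.7 and 38.9 CPM at Id2 and 7.73, 8.36 and 8.04 CPM at Iw4, which overlapped. Endothelial markers (10 of 10 measured) summed to 373, 341 and 126 CPM at Id2 and to 51.0 to 70.1 CPM at Iw4, with *Vwf* as the most abundant and *Cdh5* as the one called gene (10% lower, beside 6.12% of all genes). B-cell and plasma cell markers (3 of 8 measured) summed to 2.17, 43.8 and 39.5 CPM at Id2 and to at most 0.773 CPM at Iw4, with *Jchain* at 0 in all Iw4 libraries. The sort removed cells bearing CD45, CD11b, CD31, Ly-6G/C, Ter-119 or CD140a. In bulk samples fewer cells of a type and less RNA per cell cannot be told apart.

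Of 15 genes of milk protein and milk secretion, 9 were called lower at Iw4 (60%, beside 6.12% of all genes) and 0 higher, or 4 and 0 with the spread taken from the 6 libraries alone, and the median log2 fold change was -2.83 beside 0.00216 for all genes. In 15 of 15 members the Iw4 values lay below the Id2 values, beside 20.3% of all genes. Transcripts of the caseins and *Wap* took 31.6, 28.7 and 23.9% of the reads of Id2 replicates 2, 4 and 6, and 8.65, 4.20 and 5.16% of those of Iw4 replicates 3, 5 and 6. The share was 1.00 to 2.58% at W10 and 3.03 to 10.0% at M4, so Iw4 libraries lay within the range of M4 libraries.

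The β-casein gene *Csn2* was at 225473, 150308 and 180653 CPM at Id2 and 31228, 9996 and 15302 CPM at Iw4 (log2 fold change -3.44, SE 0.84, adjusted p = 0.0029). The groups did not overlap, although the call was lost with the spread taken from the 6 libraries alone and without Id2 replicate 2, Id2 replicate 6, Iw4 replicate 5 or Iw4 replicate 6. *Csn1s1*, the α-S1-casein, went from a mean of 122502 to 11874 CPM (log2 fold change -3.40, SE 0.77, adjusted p = 0.0013). A far deeper fall was found in *Csn1s2b*, another calcium-sensitive casein, with 18657, 22295 and 10852 CPM at Id2 and 2.32, 0.853 and 1.53 CPM at Iw4 (log2 fold change -12.69, SE 0.88, adjusted p = 1.6e-12). The whey acidic protein gene *Wap* was at 43978, 23951 and 14547 CPM and 203, 21.7 and 32.6 CPM (log2 fold change -8.85, SE 1.04, adjusted p = 8.9e-08), with Iw4 replicate 3 the highest of its group. *Glycam1*, a mucin-like milk glycoprotein, (8938, 9985 and 5785 CPM and 1122, 19.5 and 575 CPM, log2 fold change -5.08, adjusted p = 0.012) and *Lalba*, the α-lactalbumin subunit of lactose synthase (log2 fold change -2.54, adjusted p = 0.029), did not pass the test. *Glycam1* was called with the sort as a replicate block (adjusted p = 0.0084), with luminal libraries alone, after an F test and without Iw4 replicate 3, and its log2 fold change ran from -6.21 to -3.32 with one library left out. Without Iw4 replicate 6, the number of called members of this list was 5. Against W10, 14 of the 15 members were higher at Id2 (beside 6.23% of all genes), and 8 were called downward in the batch-referenced change (beside 1.59%), among them *Csn2* (log2 -5.36, adjusted p = 0.0044).

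**Figure D1:**
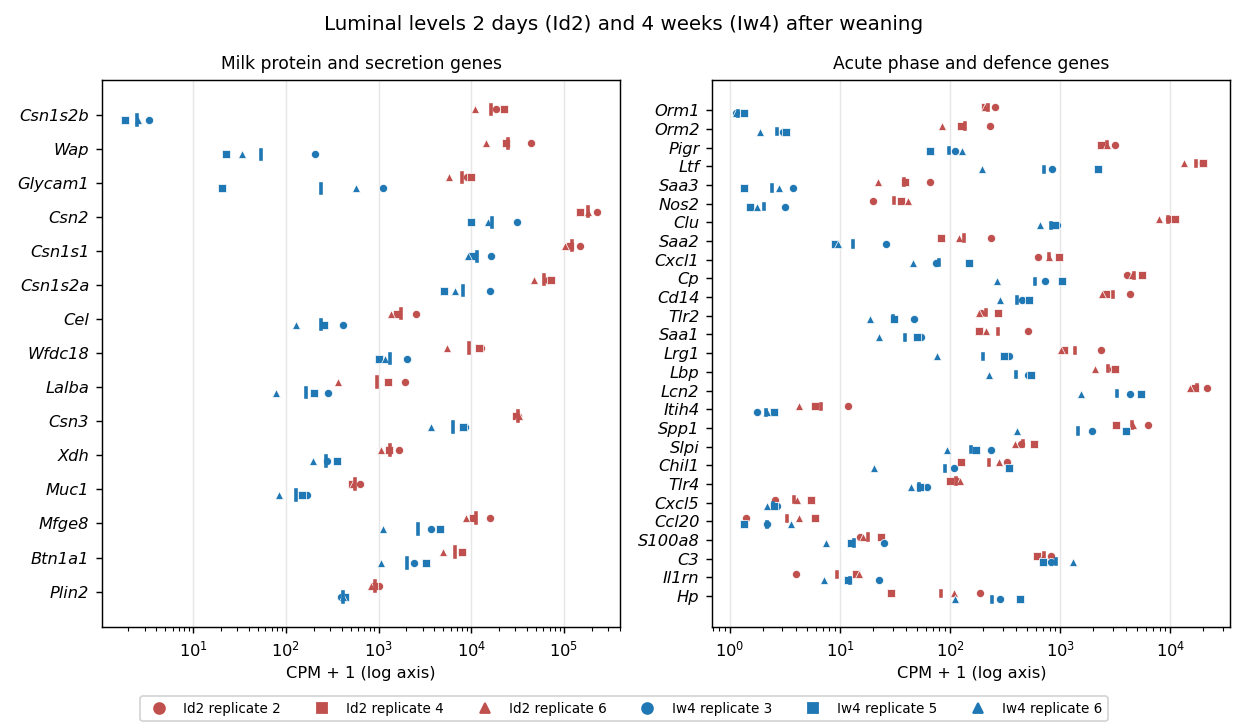
Level of each measured member of the milk protein list (left) and of the acute phase and defence list (right) in the 6 luminal libraries, as CPM + 1 on a log axis. Red symbols are Id2 replicates 2, 4 and 6, blue symbols are Iw4 replicates 3, 5 and 6, and vertical ticks are group means on the log scale. In 15 of 15 milk genes and 19 of 27 defence genes the 3 blue symbols lie left of the 3 red ones.

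Milk genes and targets of STAT3 can share a class of binding site, and the starts of 4 named genes are shown. These 4 were chosen because a match lies before their start, so the presence of a match in them is no result. STAT5, the transducer of prolactin, and STAT3 both bind the palindrome TTCNNNGAA, which reads the same on both strands. It was searched in windows of 300 bases, 250 before and 50 after each RefSeq transcription start of build GRCm38.p6, a later build than the one used for the counts. Of 32851 windows, 8.30% hold it, as do the windows of 9.55% of 27025 genes. Among the members with a window it was found in 4 of 11 milk protein genes (36.4%), 1 of 22 genes of the STAT3 axis (4.55%) and 2 of 19 acute phase and defence genes (10.5%). The 250 bases before the start are printed 5′ to 3′ on the strand of the gene, with the match in capitals. They lie at chr15:103565082-103565331 (minus strand) for *Glycam1*, chr5:87699426-87699675 (minus strand) for *Csn2*, chr5:87665958-87666207 (plus strand) for *Csn1s1* and chr11:117969367-117969616 (minus strand) for *Socs3*. The match starts 145, 93, 100 and 154 bases before the transcription start, in that order. A match is a description of the letters and no evidence of binding.
Glycam1: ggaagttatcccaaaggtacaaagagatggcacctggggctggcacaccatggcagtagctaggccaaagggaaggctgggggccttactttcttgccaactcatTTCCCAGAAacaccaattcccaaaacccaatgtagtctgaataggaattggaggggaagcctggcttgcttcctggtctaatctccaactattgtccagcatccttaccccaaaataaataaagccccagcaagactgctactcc
Csn2: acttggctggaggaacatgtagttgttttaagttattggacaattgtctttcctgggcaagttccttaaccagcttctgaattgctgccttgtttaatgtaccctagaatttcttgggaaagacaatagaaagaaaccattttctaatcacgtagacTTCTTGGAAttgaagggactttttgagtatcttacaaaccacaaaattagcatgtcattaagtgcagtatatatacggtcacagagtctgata
Csn1s1: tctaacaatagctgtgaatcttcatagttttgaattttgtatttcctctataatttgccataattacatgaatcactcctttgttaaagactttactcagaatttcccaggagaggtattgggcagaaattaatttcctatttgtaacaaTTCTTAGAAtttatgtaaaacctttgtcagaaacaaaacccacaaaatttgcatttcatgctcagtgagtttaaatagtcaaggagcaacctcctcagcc
Socs3: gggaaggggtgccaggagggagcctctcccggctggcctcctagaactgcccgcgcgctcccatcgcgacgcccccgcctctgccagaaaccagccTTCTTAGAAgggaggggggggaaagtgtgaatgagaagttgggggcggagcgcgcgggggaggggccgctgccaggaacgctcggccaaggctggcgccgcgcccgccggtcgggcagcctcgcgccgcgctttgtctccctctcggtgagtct

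Genes that supply lactose, lipid and minerals to milk were also examined. Of 12 members of the lactose and glucose list, 3 were called lower (25.0%, beside 6.12% of all genes) and 1 higher (8.33%, beside 4.39%), with a median log2 fold change of -0.81. The glucose transporter *Slc2a1* went from 1389 to 398 CPM (log2 fold change -1.87, SE 0.43, adjusted p = 0.0016), and *B4galt1*, the galactosyltransferase that pairs with α-lactalbumin, from 806 to 258 CPM (log2 fold change -1.65, SE 0.28, adjusted p = 3.7e-05). *Ugp2*, which makes UDP-glucose, fell by a smaller amount (log2 fold change -1.15, adjusted p = 0.003), and the galactokinase *Galk1* rose (log2 fold change 1.26, adjusted p = 0.0076). The call of *Galk1* was lost without any one of the 6 libraries, that of *Ugp2* without Id2 replicate 4, Id2 replicate 6 or Iw4 replicate 6, and that of *Slc2a1* without Iw4 replicate 6. The number of called members was therefore 2 without Id2 replicate 4, 2 without Id2 replicate 6 and 1 without Iw4 replicate 6. In the batch-referenced change 1 of the 12 was called, downward.

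Of 34 measured lipid genes, 8 were lower (23.5%, beside 6.12% of all genes) and 1 was higher (2.94%, beside 4.39%), with a median of -0.51. The spread of the 6 libraries alone left 4 called, all lower. *Cd36*, a fatty acid carrier of the plasma membrane, was at 570.5, 849 and 354 CPM at Id2 and 22, 9.73 and 32.8 CPM at Iw4 (log2 fold change -4.78, SE 0.96, adjusted p = 0.00036). *Lpl*, the lipase that releases fatty acids from circulating lipoproteins, went from 609.6 to 89.8 CPM (log2 fold change -2.79, SE 0.51, adjusted p = 0.00012), and *Acsl4*, an acyl-CoA synthetase, from 489 to 134 CPM (log2 fold change -1.85, adjusted p = 1.8e-05). Adipocytes also express *Cd36* and *Lpl*, and endothelial cells express *Cd36*. Basal libraries averaged 1787 CPM of *Cd36* and 470 CPM of *Lpl* at Id2, and 36.4 and 23.9 CPM at Iw4. The most abundant of the adipocyte markers (5 of 9 measured), *Fabp4*, was at 72.3, 117 and 45.6 CPM and 4.77, 12.6 and 6.26 CPM, while *Plin1* and *Lep* stayed under 3 reads in all 6 libraries. The part of other cells in *Cd36* and *Lpl* was not tested. *Dgat2*, which completes triglyceride synthesis, was the member that rose, from 2.77, 0.374 and 3.46 CPM to 22, 19.6 and 10.1 CPM (log2 fold change 2.61, SE 0.38, adjusted p = 3.7e-06). The fatty acid synthase gene *Fasn* overlapped between the groups (725, 693 and 468 CPM and 593, 301 and 656 CPM, log2 fold change -0.33, adjusted p = 0.69). Of the 34, the batch-referenced change was called downward for 4 and upward for 1.

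Calcium and zinc transport genes fell in 7 of 14 measured members (50%, beside 6.12% of all genes), with 0 higher and a median of -1.26, and in 4 with the compared groups alone. The Golgi calcium pump *Atp2c2* was at 372, 300.4 and 333 CPM at Id2 and 32.1, 26.3 and 28.4 CPM at Iw4 (log2 fold change -3.49, SE 0.61, adjusted p = 6.6e-05). The plasma membrane pump *Atp2b2*, which exports calcium into milk (log2 fold change -2.91, adjusted p = 0.00087), the calcium channel subunit *Orai1* (log2 fold change -1.97, adjusted p = 0.00087) and the zinc exporter *Slc30a2* (log2 fold change -2.82, adjusted p = 0.00028) fell as well. These 4 calls were kept under each alternative that was run for the plain comparison. Of the 14 members, 0 were called in the batch-referenced change by limma (8 at an unadjusted p under 0.05) or edgeR (7 at that p), with limma's adjusted p of 0.017 for *Atp2c2*, 0.031 for *Orai1*, 0.057 for *Atp2b2* and 0.1 for *Slc30a2*. Outside this list, the metal ion importer *Slc39a8* had one of the deepest falls of all genes, from 1068, 1853 and 662 CPM to 3.74, 3.58 and 2.3 CPM (log2 fold change -8.04, SE 0.71, adjusted p = 2.2e-10). Its levels at W10 and M4 were 2.29 and 3.36 CPM.

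Acute phase and defence genes were a second list with many called members. Of 27 measured members, 14 were called lower (51.9%, beside 6.12% of all genes) and 0 higher, with a median of -2.78, and in 19 (70.4%, beside 20.3% of all genes) the Iw4 values lay below the Id2 values. Lactoferrin (*Ltf*), an iron-binding antimicrobial milk protein, was at 19273, 19819 and 13279.6 CPM and 845, 2192 and 192 CPM (log2 fold change -4.59, SE 0.75, adjusted p = 2.5e-05). *Lcn2*, the siderophore-binding lipocalin, was at 21508, 16684 and 15129 CPM and 4261, 5440.3 and 1531 CPM (log2 fold change -2.42, SE 0.47, adjusted p = 0.00027). The LPS co-receptor *Cd14* (4338, 2626 and 2408 CPM and 448, 520.2 and 283 CPM) fell as well (log2 fold change -2.90, SE 0.63, adjusted p = 0.00096), and the chaperone clusterin, *Clu*, went from 9534 to 832 CPM (log2 fold change -3.52, SE 0.51, adjusted p = 3.7e-06). In *Ltf*, *Lcn2*, *Cd14* and *Clu* the groups did not overlap, and Iw4 replicate 6 was the lowest library in all 4.

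*Orm1*, which encodes the plasma glycoprotein orosomucoid, was at 253, 207 and 208 CPM at Id2 and 0.129, 0.341 and 0.128 CPM at Iw4, which is 1 or 2 reads (log2 fold change -7.54, SE 0.60, adjusted p = 2.8e-11). Its close relative *Orm2* (log2 fold change -5.68, adjusted p = 1.9e-10) shares sequence with it, so reads of the pair are uncertain. *Saa3*, a serum amyloid A gene, was at 65.2, 38.2 and 20.9 CPM and 2.71, 0.341 and 1.79 CPM (log2 fold change -4.00, SE 0.48, adjusted p = 1.5e-07). *Pigr*, the receptor that carries IgA and IgM across the epithelium into milk, went from 3132, 2330.0 and 2662 CPM to 109.5, 64 and 126 CPM (log2 fold change -4.79, SE 0.79, adjusted p = 2.5e-05). Outside this list, the WAP-domain gene *Wfdc17* had the second deepest of the 12 falls chosen by size (4149.7, 4168 and 2419 CPM and 2.06, 0.853 and 1.15 CPM, log2 fold change -10.56, SE 0.78, adjusted p = 6.7e-12). The chemokine *Cxcl2*, which draws neutrophils and is also outside the list, went from 1774 to 68.8 CPM (log2 fold change -4.81, adjusted p = 1.3e-05). Against W10, 18 of the 27 list members were higher at Id2 (beside 6.23% of all genes), and 11 were called downward in the batch-referenced change (beside 1.59%).

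The immunoglobulin light chain gene *Igkc* is known from plasma cells, and the part of these cells in its fall was not tested. *Igkc* was at 20.8, 358 and 153 CPM at Id2 and 0, 0 and 0.128 CPM at Iw4 (log2 fold change -6.67, adjusted p = 1.7e-05). Id2 replicate 2 was the lowest of its group, as for the plasma cell marker *Jchain* (0.593, 29.4 and 17.3 CPM and 0, 0 and 0 CPM). Class II antigen presentation genes were also lowest at Id2 in replicate 2. *Cd74*, the invariant chain, was at 114, 368 and 413 CPM and 10.7, 10.2 and 20.9 CPM (log2 fold change -4.19, adjusted p = 1.3e-06), *H2-Aa* at 37.1, 137 and 136 CPM and 3.61, 5.29 and 3.96 CPM (log2 fold change -4.10, adjusted p = 9e-07), and *H2-Ab1* at 18.8, 89.7 and 109 CPM and 0.773, 2.22 and 2.17 CPM (log2 fold change -4.47, adjusted p = 5.8e-07). Macrophage marker transcript was lowest in the same Id2 library, and the part of these cells in the result was not tested. The immunoproteasome subunit *Psmb8* went the other way (23.7, 12.5 and 8.34 CPM and 77.6, 50.9 and 51.7 CPM, log2 fold change 2.03, adjusted p = 0.00034). Of 23 measured antigen presentation and interferon genes, these 3 were lower (13.0%, beside 6.12% of all genes) and *Psmb8* was higher (4.35%, beside 4.39%), and 2, both lower, were called with the compared groups alone. The batch-referenced change was called downward for 3 of the 23.

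Lysosomal genes were a further group with many called members. Of 39 members, 25 were called lower (64.1%) and 0 higher, beside 6.12% of all genes, with a median of -1.32. In 30 of the 39 (76.9%, beside 20.3% of all genes) the Iw4 values lay below the Id2 values. Without Iw4 replicate 6, the number of called members was 16, and with the compared groups alone it was 13. Cathepsin D, *Ctsd*, an aspartic protease, was at 4159, 3992 and 4201 CPM at Id2 and 642, 694 and 339 CPM at Iw4 (log2 fold change -2.95, SE 0.28, adjusted p = 1.9e-09), although 34.4% of its exon bases also belong to another annotated gene. The cysteine protease gene *Ctsb* was at 2419.5, 2039 and 1795 CPM and 444, 509.8 and 335 CPM (log2 fold change -2.29, SE 0.26, adjusted p = 5.9e-08), *Ctsl* at 1567, 2471 and 1914 CPM and 356, 501 and 194 CPM (log2 fold change -2.58, SE 0.31, adjusted p = 1.1e-07). *Ctsa*, a carboxypeptidase that also protects lysosomal glycosidases, went from 745 to 122 CPM (log2 fold change -2.66, SE 0.24, adjusted p = 3.2e-10). In each of these 4 genes the lowest Id2 library was above the highest Iw4 library by more than the range within Iw4. *Ctss*, a cathepsin of antigen-presenting cells, was at 6.92, 36.9 and 37.6 CPM and 2.32, 2.73 and 2.81 CPM (log2 fold change -2.65, adjusted p = 0.00098). Its order of Id2 libraries was that of the macrophage markers, and its call was lost without Id2 replicate 4 or 6. Against W10, 24 of the 39 were higher at Id2 (beside 6.23% of all genes), and 13 were called downward in the batch-referenced change (beside 1.59%), among them *Ctsd* (log2 -2.40), *Ctsa* (-2.69), *Ctsl* (-2.39) and *Ctsb* (-1.94).

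Of 21 measured subunits of the V-ATPase, the pump that acidifies lysosomes, 7 were lower (33.3%, beside 6.12% of all genes) and 1 higher (4.76%, beside 4.39%), and the batch-referenced change was called downward for 3 and upward for 1. The compared groups alone gave 5 calls in the plain comparison, 4 lower and 1 higher. The membrane-sector subunits *Atp6v0a1* (159, 195 and 149 CPM and 47.5, 47.5 and 30.9 CPM, log2 fold change -1.99, adjusted p = 1.7e-08), *Atp6v0a2* (log2 fold change -1.81, adjusted p = 1.8e-07) and *Atp6v0d1* (log2 fold change -1.56, adjusted p = 1.9e-06) fell by similar amounts. The isoform *Atp6v1b1*, known from acid-secreting cells, was the member that rose, from 3.36, 3.18 and 6.1 CPM to 134, 264 and 72.8 CPM (log2 fold change 4.77, SE 0.55, adjusted p = 6.7e-08). Of 20 autophagy genes, 4 were lower (20%, beside 6.12% of all genes) and 1 higher (5.00%, beside 4.39%), with a median of -0.23, and 1, a lower one, was called with the compared groups alone. The phosphoinositide-binding gene *Wipi1* (log2 fold change -1.79, adjusted p = 3e-06), the selective receptor *Optn* (log2 fold change -1.38, adjusted p = 0.0018), the initiating kinase *Ulk1* (log2 fold change -1.34, adjusted p = 0.00058) and *Gabarap* (log2 fold change -1.08, adjusted p = 0.00016, named after its value was seen) fell, and the conjugation gene *Atg12* rose (log2 fold change 1.36, adjusted p = 0.00015). The call of *Optn* was lost without Id2 replicate 6 or Iw4 replicate 3. Of the autophagy genes, 1 was called in the batch-referenced change, downward.

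**Figure D2:**
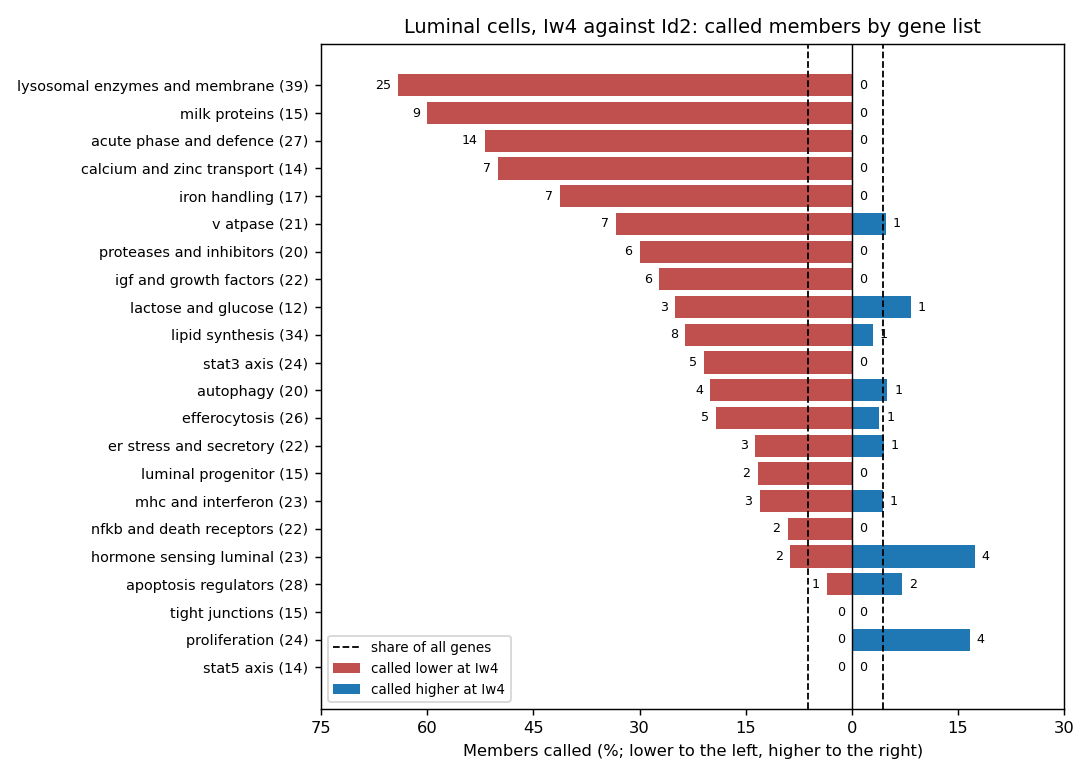
Share of the measured members of each of the 22 pathway lists that were called lower (red, to the left) or higher (blue, to the right) at Iw4 against Id2 in luminal cells, in percent, with the number of called members beside each bar and the number measured in brackets. Dashed lines mark the shares among all 17078 genes, 6.12% lower and 4.39% higher. Among these lists the lysosomal (64.1%), milk protein (60%) and acute phase (51.9%) lists reach furthest to the left, and the hormone-sensing (17.4%) and cell cycle (16.7%) lists furthest to the right.

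The STAT3 axis comprises cytokines, receptors, the factor itself, its targets and its feedback inhibitors. Of 24 measured members, 5 were called lower (20.8%, beside 6.12% of all genes) and 0 higher, with a median of -0.55. In the batch-referenced change *Il6* was called (-4.00, adjusted p = 0.0052) and the others were not, among them *Lif* (-2.26, adjusted p = 0.15), *Socs3* (-1.64, adjusted p = 0.078) and *Igfbp5* (-1.09, adjusted p = 0.37). Among ligands, *Lif*, the cytokine that starts involution, was at 1146, 1357 and 1562 CPM and 127, 166 and 115 CPM (log2 fold change -3.31, SE 0.66, adjusted p = 0.00033), and *Il6* at 47.8, 70 and 60.6 CPM and 1.93, 2.9 and 2.04 CPM (log2 fold change -4.19, SE 0.64, adjusted p = 7.8e-06). Basal libraries averaged 1586.6 CPM of *Il6* at Id2 and 26.45 CPM at Iw4. The part of other cells in the luminal fall of *Il6* was not tested. Among receptors, *Il6ra* fell (log2 fold change -2.45, adjusted p = 9.6e-05), while *Osmr* (242, 253 and 295 CPM and 256, 333 and 160.1 CPM, log2 fold change -0.14, adjusted p = 0.87) and *Lifr* (log2 fold change -0.35, adjusted p = 0.56) overlapped. The mRNA of *Stat3* was at 778, 687 and 666 CPM and 465, 525 and 427 CPM, below at Iw4 in every library but without a call (log2 fold change -0.59, adjusted p = 0.076). The feedback inhibitor *Socs3* fell from 384, 205 and 239 CPM to 42, 98.5 and 49 CPM (log2 fold change -2.16, SE 0.40, adjusted p = 0.00015), and *Igfbp5*, which binds IGF1 and is a known STAT3-dependent gene of involution, from 13076, 12598 and 16141 CPM to 3129.7, 5966 and 2535 CPM (log2 fold change -1.94, SE 0.46, adjusted p = 0.0022). The call of *Igfbp5* was also lost without Id2 replicate 6 (the library with most fibroblast marker transcript), Iw4 replicate 3 or Iw4 replicate 6. The nuclear targets *Cebpd* (log2 fold change -0.82, adjusted p = 0.13) and *Bcl3* (log2 fold change -0.36, adjusted p = 0.67) did not pass the test. Measured activity of STAT3 is not part of these data, which hold mRNA levels.

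None of the 14 members of the prolactin and STAT5 axis was called by limma or edgeR, with a median of -0.42. At an unadjusted p under 0.05 were 4 by limma, beside 5545 of all 17078 genes, and 5 by edgeR, beside 5377. In 7 of the 14 (50%, beside 20.3% of all genes) the Iw4 values lay below the Id2 values, and in 0 above. The limma fits with luminal libraries alone and with the compared groups alone each called 1, and an FDR of 0.05 called 2. Levels of *Stat5a* (83.6, 48.1 and 82.6 CPM and 62.9, 57.2 and 91.7 CPM, log2 fold change -0.00, adjusted p = 1) and of the prolactin receptor *Prlr* (1659, 802 and 1564 CPM and 1633, 2965 and 938 CPM, log2 fold change 0.37, adjusted p = 0.81) overlapped. *Elf5*, the alveolar transcription factor downstream of prolactin, was lower at Iw4 in every library (619, 541 and 473 CPM and 259, 311 and 304 CPM) without passing the test (log2 fold change -0.90, adjusted p = 0.23).

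Death receptor and NF-κB genes held 2 called members of 22 measured, both lower (9.09%, beside 6.12% of all genes). These were *Tnf* (log2 fold change -2.12, adjusted p = 0.0061), which edgeR did not call, and its receptor *Tnfrsf1a* (log2 fold change -1.06, adjusted p = 0.0018). The call of *Tnf* was lost without any one of the 6 libraries and with a pseudocount of 0.1, and that of *Tnfrsf1a* without Id2 replicate 2 or Iw4 replicate 6. The number called was 1 without any of Id2 replicates 2, 4 and 6 and Iw4 replicates 3 and 5, and 0 without Iw4 replicate 6. It was 1 with the compared groups alone, 4 (3 lower and 1 higher) with luminal libraries alone and 6 at an FDR of 0.05. Of 28 measured apoptosis regulators, 1 was lower (3.57%, beside 6.12% of all genes) and 2 were higher (7.14%, beside 4.39%), with a median of -0.39. In 14 of the 28 (50%, beside 20.3% of all genes) the Iw4 values lay below the Id2 values, and in 6 (21.4%, beside 17.7%) above. The edgeR test called 2, limma on the compared groups alone kept none of the 3 calls, and an FDR of 0.05 gave 6. The survival gene *Bcl2* rose from 2.17, 1.5 and 13.2 CPM to 22.8, 65.4 and 21.4 CPM (log2 fold change 2.77, SE 0.49, adjusted p = 8.5e-05), *Trp53*, which encodes p53, from 52.9 to 116 CPM (log2 fold change 1.08, adjusted p = 0.0094), and *Tgfb3*, an inducer of alveolar cell death, fell from 541 to 205 CPM (log2 fold change -1.59, adjusted p = 0.0039), a change that edgeR did not call. Without any one of the 6 libraries except Iw4 replicate 5, 1 member of this list was called, since *Trp53* and *Tgfb3* lost their calls. The antagonists *Bax* (log2 fold change 0.87, adjusted p = 0.064) and *Bcl2l1* (log2 fold change -1.22, adjusted p = 0.039) were not called. Of the 22 death receptor and NF-κB genes, 0 were called in the batch-referenced change by limma (6 at an unadjusted p under 0.05) or edgeR (7 at that p), and of the 28 apoptosis regulators limma called 1, upward.

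Genes of engulfment were lower in 5 of 26 measured members (19.2%, beside 6.12% of all genes) and higher in 1 (3.85%, beside 4.39%), and 2 were called, both lower, with the compared groups alone. The bridging milk protein *Mfge8* (log2 fold change -2.10, adjusted p = 0.00051) and the receptor *Tyro3* (log2 fold change -1.76, adjusted p = 0.0033), both named after their values were seen, fell with *Cd36*, *Axl* (19.4, 43.8 and 92.8 CPM and 5.67, 14.2 and 7.28 CPM, log2 fold change -2.23, adjusted p = 0.0034) and the oxidase subunit *Cybb* (5.53, 40 and 39.5 CPM and 1.16, 1.2 and 0 CPM, log2 fold change -3.72, adjusted p = 0.00034). *Cybb* is a phagocyte gene, and Id2 replicate 2, low in macrophage markers, was also its lowest Id2 library. The part of macrophages in its fall was not tested. *Axl* was highest in Id2 replicate 6, the library with most fibroblast marker transcript, and averaged 761 CPM in the basal libraries at Id2, and the part of fibroblasts in its fall was not tested. The integrin *Itgb3* was higher at Iw4 (3.56, 2.81 and 7.32 CPM and 30.5, 68.8 and 7.79 CPM, log2 fold change 2.35, adjusted p = 0.0011), and the receptor *Mertk* overlapped (log2 fold change 0.27, adjusted p = 0.77). The call of *Itgb3* was lost without Id2 replicate 4 or Iw4 replicate 5, and that of *Axl* without Id2 replicate 4, Id2 replicate 6, Iw4 replicate 3 or Iw4 replicate 6. *Mfge8* and *Tyro3* both lost their calls without Iw4 replicate 6. At least 1 of these 2 also lost its call with edgeR, a pseudocount of 0.1 or the compared groups alone, and without Id2 replicate 4 or Iw4 replicate 3. The number of called members was 3 without Id2 replicate 4 and 3 without Iw4 replicate 6. Of the 26, the batch-referenced change was called downward for 1 and upward for 1.

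Iron genes share *Ltf*, *Lcn2* and *Cp* with the defence list and were lower in 7 of 17 members (41.2%, beside 6.12% of all genes), with 0 higher and a median of -1.52, and 2 were called with the compared groups alone. Beside *Ltf* and *Lcn2* they held the ferroxidase ceruloplasmin, *Cp* (4031, 5517 and 4508 CPM and 721, 1044 and 264 CPM, log2 fold change -2.99, SE 0.38, adjusted p = 4.4e-07), and the ferrireductase *Steap3* (log2 fold change -2.66, adjusted p = 0.00068). The transferrin receptor *Tfrc* (log2 fold change -0.72, adjusted p = 0.23) and the iron exporter *Slc40a1* (log2 fold change -1.52, adjusted p = 0.03) did not pass the test. *Hephl1*, a copper-dependent ferroxidase outside this list, went from 131, 134 and 75.7 CPM to 4.77, 0.171 and 4.09 CPM (log2 fold change -5.09, adjusted p = 4.8e-08). Of the 17 iron genes, 5 were called downward in the batch-referenced change.

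Matrix protease genes and their inhibitors were lower in 6 of 20 measured members (30.0%, beside 6.12% of all genes), with 0 higher. The aggrecanase *Adamts4* was at 111, 159 and 134 CPM and 8.38, 3.24 and 7.79 CPM (log2 fold change -4.25, SE 0.61, adjusted p = 2.7e-06). Its mean in basal libraries was 3142 CPM at Id2 and 56.6 CPM at Iw4. The part of other cells in its luminal fall was not tested. The metalloproteinase inhibitors *Timp1* (40.9, 39.9 and 79.5 CPM and 9.28, 4.61 and 5.24 CPM, log2 fold change -2.86, adjusted p = 0.0025) and *Timp3* (log2 fold change -2.13, adjusted p = 0.0034) fell, and *Mmp3*, a stromal protease, was at 0.198, 2.81 and 13.8 CPM and 0.129, 0.853 and 3.7 CPM (log2 fold change -0.93, adjusted p = 0.39), highest in the Id2 library with most fibroblast marker transcript. *Timp1* and *Mmp3* were both highest in Id2 replicate 6, and the part of fibroblasts in them was not tested. The call of *Timp1* was lost without Id2 replicate 6, Iw4 replicate 5 or Iw4 replicate 6, and that of *Timp3* without Id2 replicate 4, Id2 replicate 6, Iw4 replicate 3 or Iw4 replicate 6. Without Id2 replicate 6 the number of called members was 3, and without Iw4 replicate 6 it was also 3. The batch-referenced change was called downward for 2 of the 20.

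Of 22 genes of the secretory pathway and the unfolded protein response, 3 were lower (13.6%, beside 6.12% of all genes) and 1 higher (4.55%, beside 4.39%), and 1 was called in the batch-referenced change, downward. Both calls left with the compared groups alone were lower. Without a fold change minimum 8 genes were called, beside 2039 of all 17078 genes. The transcription factors *Xbp1* (1240.2, 1229 and 901 CPM and 317, 370.0 and 309 CPM, log2 fold change -1.74, SE 0.24, adjusted p = 2e-06) and *Creb3l1* (log2 fold change -1.78, adjusted p = 0.00072) and the chaperone *Calr* (log2 fold change -1.35, adjusted p = 0.0045) fell, and the translocon subunit *Sec61b* rose (log2 fold change 1.27, adjusted p = 0.0047). *Calr* lost its call without any library other than Id2 replicate 6, and *Sec61b* without Id2 replicate 6, Iw4 replicate 3 or Iw4 replicate 5. The number of called members was 2 without Iw4 replicate 3 and 2 without Iw4 replicate 5. Growth factor genes were lower in 6 of 22 (27.3%, beside 6.12% of all genes), and 2 were called downward in the batch-referenced change (beside 1.59%). *Vegfa*, which drives vessel growth, was at 1304, 905 and 1131 CPM and 158, 185 and 125 CPM (log2 fold change -2.83, SE 0.38, adjusted p = 9e-07), the receptor *Igf2r* went from 618 to 128 CPM (log2 fold change -2.27, SE 0.19, adjusted p = 1.7e-10), and *Egf*, a milk growth factor, from 12.7, 8.98 and 8.34 CPM to 0, 0.512 and 0 CPM (log2 fold change -3.24, adjusted p = 0.00053). *Igf2* fell as well (log2 fold change -3.37, adjusted p = 0.001), but 62.8% of its exon bases also belong to another annotated gene and its call was lost without Id2 replicate 4. None of 15 tight junction genes was called by limma or edgeR, with a median of 0.00632. At an unadjusted p under 0.05 were 3 by limma, beside 5545 of all 17078 genes, and 2 by edgeR, beside 5377. The limma fits with a pseudocount of 0.1 and with the compared groups alone each called 1, as did an FDR of 0.05, and the fit with luminal libraries alone called 2.

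The genes that rose at Iw4 included several known from the hormone-sensing luminal lineage, the cells that carry estrogen and progesterone receptors and signal to their neighbours. Of 23 measured members, 4 were called higher (17.4%, beside 4.39% of all genes) and 2 lower (8.70%, beside 6.12%), with a median of 0.39. The compared groups alone gave 2 higher and 1 lower, and edgeR 2 higher and 2 lower. In the batch-referenced change 1 was called upward, *Areg* (4.98), and 1 downward, *Cyp24a1* (-5.62). The amphiregulin gene *Areg*, the EGF receptor ligand that relays estrogen signals, was at 7.11, 4.49 and 1.22 CPM at Id2 and 143, 62 and 49.9 CPM at Iw4 (log2 fold change 4.06, SE 0.79, adjusted p = 0.00024). *Tnfsf11*, the RANK ligand that relays progesterone signals, was at 0.198, 0.187 and 0 CPM and 16.6, 8.36 and 48.1 CPM (log2 fold change 4.16, SE 0.69, adjusted p = 3.2e-05). *Calca*, which encodes calcitonin, was at 3.75, 2.06 and 0 CPM and 302, 10.8 and 325 CPM (log2 fold change 5.43, SE 1.42, adjusted p = 0.0052), a call that edgeR did not make and that was lost with luminal libraries alone, with the compared groups alone and without Id2 replicate 4, Id2 replicate 6, Iw4 replicate 3 or Iw4 replicate 6. The fourth, named after its values were seen, was the coregulator *Cited1* (log2 fold change 3.98, adjusted p = 0.0046). The call of *Cited1* was also lost with edgeR, with the compared groups alone and without Id2 replicate 4, Id2 replicate 6 or Iw4 replicate 3. In *Areg*, *Tnfsf11* and *Calca* the groups did not overlap, and *Calca* was far lower in Iw4 replicate 5 than in the other Iw4 libraries. In the batch-referenced change *Tnfsf11* (1.67, adjusted p = 0.36) and *Calca* (2.13, adjusted p = 0.62) were not called, and neither was called between Id2 and W10 (adjusted p = 0.081 and 0.47).

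The receptors themselves did not pass the test. *Esr1* was at 80, 60.1 and 69 CPM and 81.6, 71.8 and 46.6 CPM (log2 fold change -0.09, adjusted p = 0.9), and *Pgr* at 67.8, 7.86 and 49.2 CPM and 115, 159.9 and 42.1 CPM (log2 fold change 1.57, adjusted p = 0.1), with Id2 replicate 4 the lowest and a log2 fold change of 0.66 to 2.14 with one library left out. The pioneer factor *Foxa1* overlapped too (log2 fold change 1.04, adjusted p = 0.29). The members that fell were *Cyp24a1*, the vitamin D-degrading hydroxylase (782, 416 and 612 CPM and 12.1, 51 and 22.4 CPM, log2 fold change -4.54, SE 0.76, adjusted p = 3.7e-05), and *Ly6a*, the surface protein Sca-1 (log2 fold change -3.43, adjusted p = 0.00057, named after its value was seen). The call of *Ly6a* was lost with the compared groups alone and without Id2 replicate 4. The number of called members was 3 without Id2 replicate 4, and 2 were called higher without any one of Id2 replicate 4, Id2 replicate 6 and Iw4 replicate 3. Of 15 luminal progenitor genes, 2 were lower (13.3%, beside 6.12% of all genes), *Cd14* and the transcription factor *Sox9* (969.8, 544 and 732 CPM and 256, 289 and 165 CPM, log2 fold change -1.66, adjusted p = 0.00024), and 0 were higher. The batch-referenced change was called for 0 of the 15 by limma (4 at an unadjusted p under 0.05) and by edgeR (5 at that p). The receptor tyrosine kinase *Kit* was at 112, 101 and 71.6 CPM and 263, 438 and 222 CPM, above at Iw4 in every library, without a call (log2 fold change 1.65, adjusted p = 0.039).

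In 11 of the 12 largest rises the mean level at Id2 was under 5 CPM. *Abcc8*, the sulfonylurea receptor subunit of a potassium channel, was at 0, 0.374 and 0 CPM at Id2 and 61.2, 38.9 and 19.2 CPM at Iw4 (log2 fold change 5.05, SE 0.69, adjusted p = 1.3e-06). *Lgr6*, a receptor for R-spondins, was at 1.19, 1.87 and 1.02 CPM and 74.2, 84.3 and 120.3 CPM (log2 fold change 5.30, SE 0.48, adjusted p = 5.7e-10), and *Rspo1*, an R-spondin that amplifies Wnt signals, at 0.79, 1.5 and 2.03 CPM and 86.8, 15.2 and 186 CPM (log2 fold change 4.75, SE 0.89, adjusted p = 0.00016). *Ptn*, the heparin-binding growth factor pleiotrophin, was at 91.9, 13.1 and 81.4 CPM and 1972, 1425 and 515 CPM (log2 fold change 4.57, SE 0.87, adjusted p = 0.0002), and *Ptprz1*, a phosphatase receptor to which it binds, at 0, 2.25 and 0 CPM and 25.4, 81.2 and 13.3 CPM (log2 fold change 4.41, SE 0.67, adjusted p = 8.8e-06). Id2 replicate 4 had the lowest *Ptn* of the Id2 libraries and the highest *Ptprz1*. The mechanosensitive channel *Piezo2* (2.57, 0.936 and 2.65 CPM and 81.4, 59.7 and 26.1 CPM, log2 fold change 4.13, adjusted p = 4.3e-06), the synaptic adhesion gene *Nrxn3* (log2 fold change 4.59, adjusted p = 1.1e-06), *Esm1*, a proteoglycan known from endothelial cells (log2 fold change 4.58, adjusted p = 4.1e-05), and *Emid1* (log2 fold change 4.29, adjusted p = 4.3e-08) rose beside them. Against W10 the Id2 levels of *Abcc8* (-6.00), *Lgr6* (-4.58), *Ptn* (-6.12) and *Piezo2* (-6.41) were called lower, as log2 differences. The same 4 genes were called upward in the batch-referenced change, with log2 values of 6.59, 4.78, 6.54 and 5.46. Of the 12 largest rises, 9 were called in it, and *Rspo1* (3.36, adjusted p = 0.11), *Tnfsf11* and *Calca* were not. These genes were chosen by their Iw4 to Id2 difference, which the batch-referenced change contains, so these calls are no separate evidence of a rise.

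Deep falls outside the lists included a channel, a receptor and a ribonuclease. The inward-rectifier potassium channel *Kcnj15* was at 906, 915 and 1074 CPM and 27.1, 26.8 and 23.6 CPM (log2 fold change -5.17, SE 0.59, adjusted p = 5.7e-08), with narrow spread in both groups. The chemerin receptor *Cmklr1* was at 146, 81.8 and 81.4 CPM and 2.58, 1.54 and 2.3 CPM (log2 fold change -5.01, SE 0.40, adjusted p = 2.8e-11), and the secreted ribonuclease *Rnase1* at 319.5, 329 and 332 CPM and 10.6, 8.19 and 12.5 CPM (log2 fold change -4.86, SE 0.57, adjusted p = 8.6e-08).

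**Figure D3:**
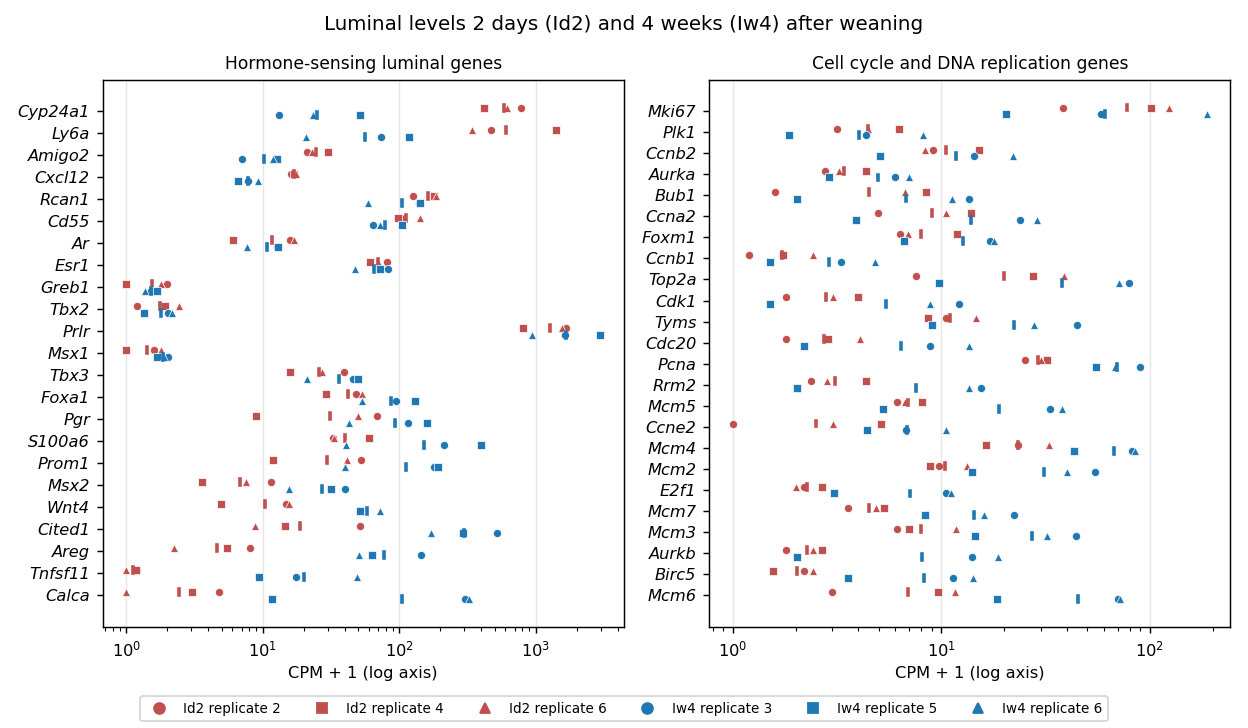
Level of each measured member of the hormone-sensing list (left) and the cell cycle list (right) in the 6 luminal libraries, as CPM + 1 on a log axis. Symbols and ticks mark libraries and group means on the log scale, red for Id2 and blue for Iw4. *Areg*, *Tnfsf11* and *Calca* lie furthest to the right at Iw4 relative to Id2, and in the cell cycle list Iw4 replicate 5 lies mostly below the other Iw4 libraries.

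Cell cycle and DNA replication genes were higher in 4 of 24 members (16.7%, beside 4.39% of all genes) and lower in 0, with a median of 1.24. The edgeR test also called 4, limma on the compared groups alone kept none of the 4 calls, and an FDR of 0.05 gave 8 higher. The replicative helicase subunits *Mcm6* (1.98, 8.61 and 10.6 CPM and 69.6, 17.6 and 70.5 CPM, log2 fold change 2.71, SE 0.59, adjusted p = 0.00091), *Mcm7* (log2 fold change 1.67, adjusted p = 0.0023) and *Mcm4* (log2 fold change 1.53, adjusted p = 0.0011) and the sliding clamp *Pcna* (24.1, 31.2 and 29.1 CPM and 89, 53.9 and 66.8 CPM, log2 fold change 1.26, SE 0.27, adjusted p = 0.00092) rose. In 22 of the 24 the fitted value was above 0, beside 8559 of all 17078 genes. In 8 (33.3%, beside 17.7% of all genes) the Iw4 values lay above the Id2 values. The count was 0 without Iw4 replicate 3, 1 without Iw4 replicate 6 and 2 without Id2 replicate 2, and it was 7 without Iw4 replicate 5, the library in which most of these genes were lowest at Iw4. The proliferation antigen *Mki67* was at 37.1, 99.9 and 122 CPM and 57.6, 19.5 and 186 CPM (log2 fold change -0.36, adjusted p = 0.81). By limma and by edgeR, 0 of these 24 genes were called between Id2 and W10 and 0 in the batch-referenced change, with 3 at an unadjusted p under 0.05 in each case.

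Levels at the reference time points are given for 4 of the genes in the plot of time points. *Slc39a8* averaged 2.29 CPM at W10, 1195 at Id2, 3.21 at Iw4 and 3.36 at M4, and *Ltf* 624, 17457, 1077 and 807 CPM. In *Ctsd* the averages were 666, 4118, 558 and 456 CPM, and in *Lgr6* 56.6, 1.36, 92.9 and 80.1 CPM. No called difference from M4 was found at Iw4 for any gene, but a missing call does not show that levels were equal.

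**Figure D4:**
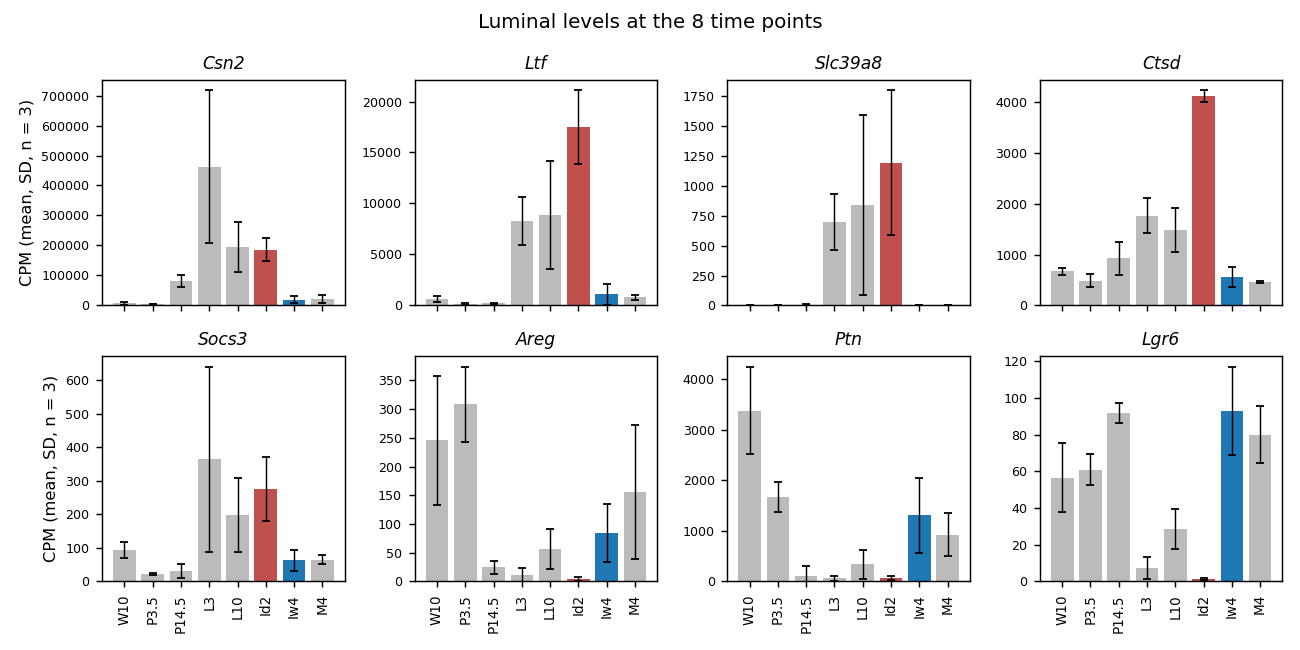
Mean CPM of 8 named genes in luminal cells at the 8 time points (W10, pregnancy P3.5 and P14.5, lactation L3 and L10, Id2, Iw4, M4), on linear axes that start at 0, with the SD over 3 libraries as error bars. Id2 is red, Iw4 blue and the other time points grey. *Ltf*, *Slc39a8* and *Ctsd* are highest at Id2, *Areg* and *Lgr6* are lowest there, and *Ptn* is about as low there as on day 3 of lactation (L3).

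Luminal and basal cells of the same sort share lane and amplification batch, so a technical shift that acts alike on both cell types cancels in the difference of their changes. That difference was called for 702 genes (4.11%), 205 with a more positive change in luminal cells and 497 with a more negative one. With the sort as a replicate block 1108 genes were called, 395 more positive and 713 more negative, and edgeR called 424. The more positive count was 135 without Id2 replicate 2 and 133 without Iw4 replicate 3. The mean summed fibroblast marker level of basal libraries was 30951 CPM at Id2 and 1142 CPM at Iw4. Endothelial markers were at 6109 and 122 CPM, pericyte markers at 5488 and 273 CPM and adipocyte markers at 1586 and 87 CPM. Basal markers (7090 and 17546 CPM) and luminal markers (612 and 1354 CPM) went the other way. The part of these cell types in the difference was not tested.

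Of the named genes, 18 had a called difference. *Igfbp5* fell in luminal cells and was higher at Iw4 in basal cells (mean 1998 and 5631 CPM), a difference of -3.70 on the log2 scale (SE 0.65, adjusted p = 0.00017). *Sox9* had basal means of 89.1 and 249 CPM and a difference of -3.17 (SE 0.45, adjusted p = 8.9e-06). *Socs3* was at basal means of 550.5 and 745 CPM (difference -2.58, adjusted p = 0.0024), and *Ctsl* at 503 and 630.5 CPM (difference -2.88, adjusted p = 1.8e-05). *Vegfa* was at basal means of 189 and 163 CPM against its luminal fall (difference -2.62, adjusted p = 0.0011). *Slc39a8* was lower at Iw4 in both cell types, with a larger change in luminal cells (basal means 209 and 12.5 CPM, difference -4.43, adjusted p = 0.003). *Piezo2* rose in luminal cells while basal means were 24.7 and 11 CPM (difference 5.37, adjusted p = 4.1e-05). The replicate block added calls for *Slc2a1*, *Lcn2*, *Nrxn3*, *Esm1*, *Orm2*, *Rnase1*, *Itgb3*, *Mcm4*, *Cd74* and *H2-Aa*, with adjusted p from 0.003 to 0.0091. *Csn2*, *Csn1s1* and *Csn1s2b* had no called difference, *Csn2* with a value of -0.56 (adjusted p = 0.84) and basal means of 15189.7 and 2348 CPM.

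**Figure D5:**
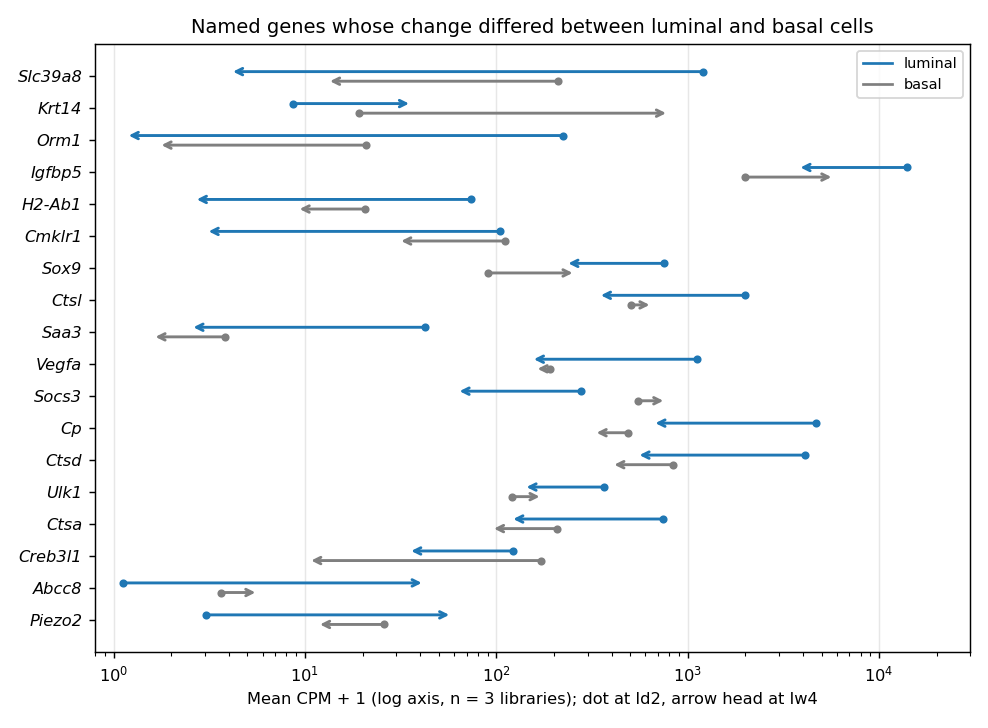
Mean CPM + 1 on a log axis at Id2 (dot) and Iw4 (arrow head) in luminal (blue) and basal (grey) libraries, n = 3 each, for the 18 named genes whose change differed between the cell types. *Igfbp5*, *Sox9*, *Ctsl*, *Socs3* and *Ulk1* point in opposite directions in the 2 cell types, as does *Piezo2*.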

How the data were processed

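Total RNA of sorted cells was amplified and sequenced without molecular identifiers. The authors aligned reads with GSNAP (version 2012-07-20) to build mm9, ran htseq-count on genes and dropped rare genes as well as very abundant genes of low variation. For the deposited CPM, a normalized signal, the authors scaled counts by edgeR's effective library sizes. All values (100%, tolerance 0.01 reads) equal an integer number of reads times a factor of the library, so reads were recovered. Of 17078 gene identifiers, 16897 matched a symbol. CPM columns summed to 1.45e+06 to 1.70e+06 at Id2 and 675541 to 837477 at Iw4.

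One linear model of log2(CPM + 1), with 46 libraries in 16 conditions, was fitted in limma 3.58.1 (R 4.3.3), with contrasts between conditions and Benjamini-Hochberg adjustment over all genes. Deposited CPM are not counts, so edgeR 4.0.16 on the recovered reads was an alternative, which called 1466 genes in the Iw4 to Id2 comparison. The other alternatives were a pseudocount of 0.1, a mean of at least 5 CPM, median ratios, luminal libraries alone, the compared groups alone, an FDR of 0.05, no fold minimum, an F test first, a sort block and leaving out each library. Luminal and basal libraries of a sort come from the same animals, as the replicate numbers and sort dates that they share in the labels say. They deviated together (median r = 0.25 across genes, 21 of 22 pairs above 0), and the block correlation was 0.179. The scripts were tested on simulated data.

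Genes are named if they were on a fixed list of anchors, were among the 12 largest rises or falls of called genes that did not overlap and reached 20 CPM, were among up to 4 called members of a list, or were the most abundant or an undetected marker of another cell type. Called markers of other cell types beyond that rule, *Muc1*, and the genes so marked in the report were named after their values were seen, and 1 gene that the rule selects is not reported here. The libraries, lists and rules were chosen with earlier results of these data known. Of 119 named genes, 14 overlap exons of other protein-coding genes, 2 of them over at least 25% of their exon bases. Replicates are separate pools of animals. The basal library of P14.5 replicate 2 was not analysed here.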

Additional observations from a re-analysis of the deposited data

Results flagged for a closer look

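The change from Id2 to Iw4 differed between luminal and basal cells for 18 named genes, by a direct test of the difference (luminal minus basal, log2 scale). It was more negative in luminal cells for *Socs3* (-2.58), *Igfbp5* (-3.70), *Saa3* (-2.81), *Ctsl* (-2.88), *Krt14* (-4.39), *Slc39a8* (-4.43), *Orm1* (-4.17), *Cmklr1* (-3.26), *Ctsd* (-2.00), *Ctsa* (-1.60), *Ulk1* (-1.88), *Cp* (-2.56), *Sox9* (-3.17), *H2-Ab1* (-3.28) and *Vegfa* (-2.62). It was more positive for *Abcc8* (4.68), *Piezo2* (5.37) and *Creb3l1* (2.11). The basal keratin *Krt14* averaged 18.2 CPM in basal libraries at Id2 and 769 CPM at Iw4. *H2-Ab1* and *Creb3l1* were each called in 1 of the 6 fits that left out a luminal library, *Saa3* in 3, *Socs3* in 4, and *Cp* and *Slc39a8* in 5. The edgeR test did not call *Saa3*, *Krt14*, *Abcc8*, *Orm1* or *Creb3l1*.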

How the results depend on the processing

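With the spread taken from the compared groups alone, calls fell from 1795 to 638 between Iw4 and Id2, from 702 to 240 for the luminal to basal difference, from 1771 to 459 between Id2 and W10, and from 129 to 72 over all list members. With edgeR they were 424 for the luminal to basal difference and 234, against 370, for the batch-referenced change. At an FDR of 0.05 these were 1465 and 1014. The sort as a replicate block gave 1108 calls for the luminal to basal difference, and moved no other count by over 1.5 times. Leaving out single libraries gave 1283 to 1429 calls between Iw4 and Id2 and 523 to 680 for the luminal to basal difference. No alternative called a gene between Iw4 and M4. Of 94 called named genes, 54 kept the call under every alternative run for them and 0 changed sign, while 35 lost it with the compared groups alone and 7 to 17 without a given library. Among genes that were not called, the sign turned for *Mki67* with edgeR (0.039) and in some fits without a library, where values ranged from -0.26 to 0.13 for *Stat5a*, -0.045 to 0.78 for *Prlr*, -0.55 to 0.016 for *Fasn*, -0.37 to 0.15 for *Osmr*, -0.66 to 0.013 for *Lifr*, -0.049 to 0.64 for *Mertk*, -1.81 to 0.0051 for *Mmp3*, -0.25 to 0.14 for *Esr1* and -1.17 to 0.43 for *Mki67*. The cause of these changes was not tested. Depth limits genes near 3 reads, and 3 pools a group limit small changes. The luminal fit alone gives no luminal to basal difference.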

Other observations

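Further marker lists are given as levels, and the background for their calls is 6.12% of all genes called lower at Iw4. Pericyte markers (7 of 7 measured) summed to 179.6, 308 and 267 CPM in Id2 replicates 2, 4 and 6 and to 130.1 to 149 CPM at Iw4, with *Rgs5*, *Pdgfrb* and *Abcc9* called lower at Iw4. The most abundant of them, *Notch3*, was at 54.3 to 61.6 CPM at Id2 and 117 to 134 CPM at Iw4, and *Higd1b* was under 3 reads in all 6 libraries. Neutrophil markers (3 of 9 measured) summed to 18.8, 48.7 and 54.5 CPM at Id2 and to 7.15 to 25.3 CPM at Iw4, with *S100a8* as the most abundant and *Ptprc* and *Itgam* called lower. T-cell markers (6 of 9 measured) summed to 11.7, 29.6 and 62.1 CPM at Id2 and to 2.19 to 6.13 CPM at Iw4, with *Thy1* as the most abundant and *Ptprc* and *Cd3e* called lower. Erythroid markers (4 of 6 measured) summed to 22.9, 26.0 and 24.0 CPM at Id2 and to 2.96 to 5.75 CPM at Iw4, with *Hbb-bs* as the most abundant and *Hbb-bs* and *Hbb-bt* called lower.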
